A study of Homo sapiens with 12 samples.

Results

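The mitochondrial genome encodes 37 genes, 13 for mRNAs of the complexes of oxidative phosphorylation, 2 for the rRNAs of the mitochondrial ribosome and 22 for tRNAs, all with symbols that begin with MT-. The rows with these symbols were taken from a table of raw gene counts over 45478 genes, which held 35 of them: the 13 mRNAs, both rRNAs and 20 tRNAs (MT-TG and MT-TR were not analysed here). The counts come from poly(A)-selected mRNA libraries of clear cell renal cell carcinoma (ccRCC) lines in culture, 3 replicate libraries in each of 4 groups. The parental lines 786-O and A498 had no drug treatment. The sunitinib-resistant cultures were derived from them by exposure to rising concentrations of sunitinib, an inhibitor of receptor tyrosine kinases, until they grew at 4 μM (resistant 786-O) or 2 μM (resistant A498), over 4 months or more than 20 passages in medium that held the drug. The sequenced libraries of all 4 groups are labelled as untreated, and their sample names hold the tag veh. Each resistant group is 1 selected culture. Batch labels follow the groups exactly, so batch and group cannot be told apart. Whether replicate libraries came from separate cultures is not stated, so that the p-values measure the spread between these libraries, which may be technical.

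As background, the human mitochondrial genome is a small circle present in many copies per cell. It is transcribed on both strands from promoters in the control region by the polymerase POLRMT with TFAM and TFB2M, as long precursors that are cut at the tRNAs between the genes. The heavy-strand precursor gives both rRNAs, most tRNAs and all mRNAs except MT-ND6, which comes with the light-strand tRNAs from the light strand. Because the genes of a strand are transcribed together, differences in their steady levels arise largely after transcription. Most mitochondrial mRNAs carry short poly(A) tails, MT-ND6 and the tRNAs largely do not, and the rRNAs have very short ones.

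The genes lie end to end on the 16569 bp mitochondrial chromosome (GRCh38, chrM), without introns, and some share bases. The stretches below show overlaps of several bases between mRNA genes, where a read can belong to either gene, with the shared bases in capitals. MT-ATP8 (chrM:8366-8572) and MT-ATP6 (chrM:8527-9207) share 46 bases, and MT-ND4L (chrM:10470-10766) and MT-ND4 (chrM:10760-12137) share 7. MT-ATP6 and MT-CO3 share 1 base, at which the former ends and the latter starts. The capitals begin with the ATG start codon of the downstream gene. Shown are chrM:8515-8584 and chrM:10748-10778, heavy-strand genes on the + strand of the reference.
MT-ATP8 and MT-ATP6: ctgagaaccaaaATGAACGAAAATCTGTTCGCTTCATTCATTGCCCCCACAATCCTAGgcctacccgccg
MT-ND4L and MT-ND4: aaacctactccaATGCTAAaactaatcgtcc

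The tRNAs below are shown because results turn on them: MT-TS1, MT-TY and MT-TP, light-strand genes with the highest tRNA counts, and MT-TD, the heavy-strand neighbour of MT-TS1. They decode serine (UCN codons), tyrosine, proline and aspartate. The sequences are those of the gene strand, with the anticodon in capitals, from chrM:7446-7514, chrM:5826-5891 and chrM:15956-16023 on the - strand and chrM:7518-7585 on the + strand.
MT-TS1: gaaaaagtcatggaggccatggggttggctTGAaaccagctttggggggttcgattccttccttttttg
MT-TY: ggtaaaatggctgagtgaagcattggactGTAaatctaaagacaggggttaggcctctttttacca
MT-TP: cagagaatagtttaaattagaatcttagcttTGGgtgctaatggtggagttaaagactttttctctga
MT-TD: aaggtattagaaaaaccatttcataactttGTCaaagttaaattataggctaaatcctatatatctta

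The nuclear genome holds near-identical copies of mitochondrial genes, which can take reads from them. MTATP6P1 (chr1:633696-634376, + strand) differs from MT-ATP6 at 10 of 681 bases, with an identical run of up to 141 bp. The stretch around 1 of these bases, in capitals, shows how little separates the copy (chr1:633999-634059) from the gene (chrM:8830-8890).
MTATP6P1: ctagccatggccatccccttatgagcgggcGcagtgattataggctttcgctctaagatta
MT-ATP6: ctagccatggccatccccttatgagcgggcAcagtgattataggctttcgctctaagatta
Of 138 such copies in the table, 64 had a count in some library. Their sum came to 1.70% to 1.94% of the counts of the 35 mitochondrial genes in each library. MTATP6P1 alone held 22.1% to 27.5% as many counts as MT-ATP6, so that MT-ATP6 is uncertain by about that share. MTND2P28 (98.4% identical to MT-ND2, the gene of a complex I subunit) held 6.36% to 8.34% as many counts as MT-ND2. MTCO1P12 (98.7% identical to MT-CO1, the catalytic subunit of complex IV) held 0.143% to 0.147% as many counts as MT-CO1 in parental 786-O and 0.288% to 0.311% in resistant 786-O, ranges that did not overlap. Parental and resistant ranges of the larger copies did not overlap either. For MTATP6P1 they were 22.7% to 23.7% and 25.7% to 26.4% in 786-O, and 23.5% to 27.5% and 22.1% to 23.1% in A498. For MTND2P28 they were 6.38% to 6.70% and 7.80% to 8.34% in 786-O, and 6.36% to 6.74% and 7.52% to 7.73% in A498. Those of MTCO1P12 overlapped in A498.

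Some facts of the libraries bear on every result. Total counts were 20042519 to 47972092 per library. HIF1A, the gene of a hypoxia-inducible factor, set the parental lines apart. It had 6718 to 10747 counts in parental A498 but 176 to 238 in the libraries labelled resistant A498, beside 421 to 452 in parental 786-O and 389 to 460 in resistant 786-O. Over all genes tested, the median correlation of log2 CPM (counts scaled by the TMM-normalized library size) of the libraries labelled resistant A498 was 0.989 with resistant 786-O, 0.967 with parental 786-O and 0.918 with parental A498. These libraries thus go against their label, and their values are given below also against parental 786-O. Resistant 786-O replicate 2 stood apart, with a chi-square per degree of freedom of at least 43.7 against each of the other replicates, which had 7.20 between them. The ccRCC markers PAX8, PAX2, EPAS1 and VIM were present in all groups, whereas CA9, a target of hypoxia-inducible factors, had 23 to 54 counts in parental A498 and at most 2 in any library of the other groups, and NDUFA4L2 had at most 33. Markers of leukocytes and endothelium, 11 genes, summed to 0.210 to 1.67 CPM.

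The strand of the counts matters here because light-strand genes lie opposite heavy-strand transcripts. The study used a stranded kit and counted in a strand mode. In the table, however, 222 genes annotated inside the exons of a protein-coding gene of the opposite strand (at least 98% of their length) had a median read density of 169.9% of that gene's, and 199 of them (89.6%) were above 10%. A gene and its antisense partner therefore cannot be told apart in these counts, which holds for MT-ND6 and the 8 light-strand tRNAs.

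Mitochondrial transcripts made up a larger share of the library in resistant 786-O than in parental 786-O and a smaller one in the libraries labelled resistant A498 than in parental A498. All 35 genes together held 1.67%, 1.91% and 1.47% of the counts in the parental 786-O replicates and 2.86%, 2.21% and 2.40% in resistant 786-O. They held 1.95%, 2.59% and 2.86% in parental A498 and 1.58%, 1.63% and 1.80% in resistant A498. The groups of each pair did not overlap. The means were 1.68% ± 0.219 (SD, n = 3) in parental 786-O, 2.49% ± 0.337 in resistant 786-O, 2.47% ± 0.467 in parental A498 and 1.67% ± 0.113 in resistant A498. The ratio of means was 1.48 for resistant 786-O to parental 786-O and 0.676 for resistant A498 to parental A498. Against parental 786-O, resistant A498 overlapped, with a ratio of 0.992. With 3 libraries against 3, an exact permutation test of 1 value cannot go below 0.10, so the shares were not tested. Counting error was small beside the spread between replicates, since the 95% Wilson intervals, which cover counting error only, spanned for example 1.66% to 1.67% in parental 786-O replicate 1. In bulk RNA, fewer mitochondrial genomes per cell and less RNA per genome cannot be told apart.

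The 3 classes of RNA did not move alike. The 13 mRNAs, which held most of the mitochondrial counts, went from 1.52% ± 0.189 of the library in parental 786-O to 2.28% ± 0.314 in resistant 786-O, without overlap. They were at 1.67%, 2.21% and 2.43% in parental A498 and 1.47%, 1.52% and 1.68% in resistant A498, where the lowest parental A498 library lay within the resistant A498 range. The rRNAs were at 0.149%, 0.184% and 0.131% in parental 786-O, 0.210%, 0.167% and 0.186% in resistant 786-O, 0.271%, 0.362% and 0.407% in parental A498 and 0.0975%, 0.104% and 0.109% in resistant A498. Every parental A498 library was thus above every other library for the rRNAs, and every resistant A498 library below. The 20 tRNAs held 0.0117% ± 0.00284 in parental 786-O, 0.0141% ± 0.00124 in resistant 786-O, 0.0174% ± 0.00217 in parental A498 and 0.0101% ± 3.90e-04 in resistant A498. Parental A498 and resistant A498 did not overlap for the tRNAs, and the groups of the other line did. Most of these tRNA counts lay on light-strand genes, where sense and antisense cannot be told apart.

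Nuclear RNAs that lack poly(A) tails, such as replication-dependent histone mRNAs, also differed between the groups. Whether this reflects poly(A) capture, RNA quality or the expression of these genes was not tested. The 15 such genes in the table summed to 12.4 to 15.8 CPM in parental 786-O, 61.5 to 82.0 in resistant 786-O, 44.1 to 47.0 in parental A498 and 58.9 to 65.9 in resistant A498. Of the 7 tested, 7 were called higher in resistant 786-O than in parental 786-O, beside 35.0% of all genes, and 2 in resistant A498 than in parental A498, beside 36.3% of all genes. Their part in the differences of mitochondrial RNA, and of the rRNAs and tRNAs in particular, was not tested.

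**Figure D1:**
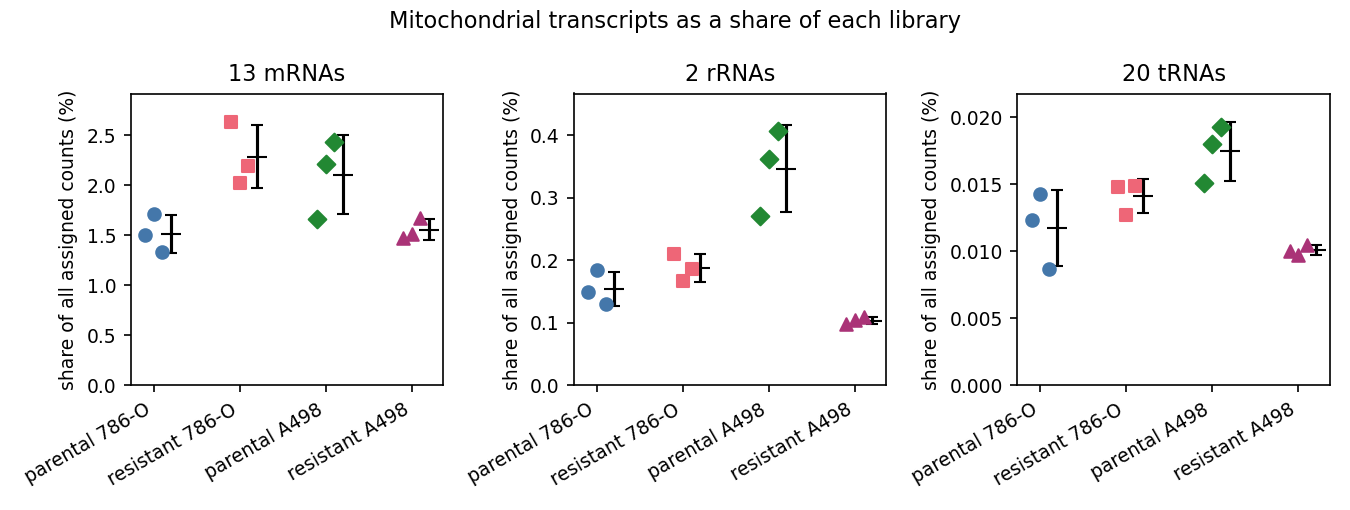
Share of all assigned counts (%, y axes from 0) held by the 13 mRNAs, the 2 rRNAs and the 20 tRNAs in each library (points) with the mean and SD of 3 libraries (black). The mRNAs had their higher means in resistant 786-O and parental A498, whereas the rRNAs of parental A498 lay above those of every other group and those of resistant A498 below.

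Levels of genes are compared per length, as CPM per kb of gene. MT-CO2, the complex IV subunit that takes electrons from cytochrome c, had the highest mean among the mRNAs in every group, at 3002 ± 373 CPM per kb (SD, n = 3) in parental 786-O, 4872 ± 509 in resistant 786-O, 4855 ± 858 in parental A498 and 3706 ± 157 in resistant A498. MT-CO3 and MT-CO1, the other subunits of complex IV, were next in parental 786-O with 2717 ± 344 and 2301 ± 293. The lowest mean was that of MT-ND5 in parental 786-O (557 ± 76.4) and parental A498 (533 ± 92.2), of MT-ND3 in resistant 786-O (665 ± 62.7) and of MT-ND6 in resistant A498 (405 ± 40.4). The range from the lowest to the highest mRNA was 5.39-fold in parental 786-O, 7.32-fold in resistant 786-O, 9.11-fold in parental A498 and 9.15-fold in resistant A498.

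The rRNAs, the most abundant mitochondrial RNAs in a cell as background, were at mRNA levels or below in these poly(A)-selected libraries. MT-RNR2, the 16S rRNA of the large ribosomal subunit, had 869.6 ± 149 CPM per kb in parental 786-O, 1001 ± 131 in resistant 786-O, 1966 ± 385 in parental A498 and 547 ± 31.0 in resistant A498. MT-RNR1, the 12S rRNA of the small subunit, had 311 ± 61.4, 266 ± 21.0, 450.4 ± 98.1 and 148 ± 5.73 in the same order. Most of the counts on tRNA genes came from 3 light-strand genes, where counts of the gene and of its antisense cannot be told apart. MT-TS1, MT-TY and MT-TP together held 81.9% to 94.3% of the tRNA counts of a library, and MT-TS1 alone 42.6% to 71.5%. MT-TS1 lies between MT-CO1 and MT-TD, antisense to the heavy-strand precursor, and had 1062 ± 380.2 CPM per kb in parental 786-O, beside 1007 ± 124 for MT-ND2. Before division by length, the means were 73.3 CPM for MT-TS1 and 1050 for MT-ND2. MT-TS1 has 69 bp, less than a read, so that its value per kb cannot be set against that of a long gene. The neighbour of MT-TS1 on the heavy strand, MT-TD, had 14.7 ± 5.39 CPM per kb.

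Of the 35 genes, 27 passed the filter on low counts and were tested: the 13 mRNAs, both rRNAs and 12 tRNAs, 7 of the light strand and 5 of the heavy strand. The other 8 were tRNAs. MT-TK and MT-TL2, for lysine and leucine, had 0 counts in all 12 libraries, which allows up to 3 counts per library or 0.0625 to 0.150 counts when scaled like CPM by the total. MT-TV, MT-TL1, MT-TN, MT-TH and MT-TS2 had at most 3 counts in any library. MT-TF, the tRNA for phenylalanine, had 1 to 4 counts in parental 786-O, 6 to 12 in resistant 786-O, 1 or 2 in parental A498 and 1 in each resistant A498 library.

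**Figure D2:**
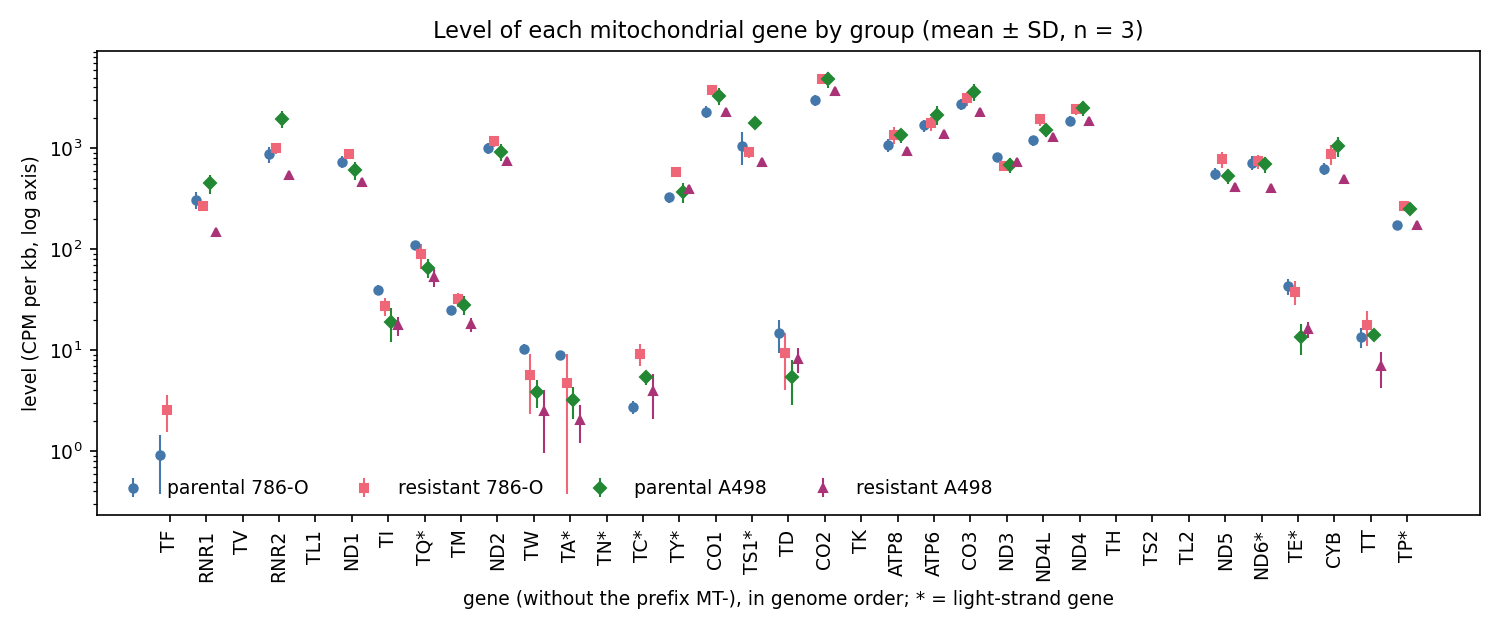
Mean level of the 35 genes in genome order (CPM per kb, log axis) in the 4 groups, with bars for the SD of 3 libraries, cut at 95% of the mean downwards, and groups with at most 3 counts in every library are not drawn. The mRNAs lie between 405 and 4872 CPM per kb, most tRNAs lie far below, and MT-TS1, MT-TY and MT-TP on the light strand lie nearer to the mRNAs. The tRNA genes are shorter than a read, so that their values per kb cannot be set against those of the mRNAs.

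Comparing resistant 786-O with parental 786-O asked how mitochondrial RNA differed in the resistant culture. MT-CO1 and MT-CO2 of complex IV and several subunits of complex I were higher in resistant 786-O, MT-ND3 was lower, and the rRNAs did not pass the test. Of the 27 genes tested, 10 were called higher and 2 lower at an adjusted p under 0.05 (quasi-likelihood test of edgeR, with p-values adjusted by Benjamini-Hochberg over 19929 genes). Of all genes tested, 68.5% were called, 35.0% higher and 33.5% lower, so that the share of mitochondrial genes called was below that of all genes. The median log2 fold change was 0.22 for the 27 genes and 0.03 for all genes. The libraries of the groups did not overlap for 11 of the 27 genes, beside 68.9% of all genes. Without resistant 786-O replicate 2, which stood apart, 16 were called higher and 2 lower. Without parental 786-O replicate 3, 7 were called higher and 4 lower, and without resistant 786-O replicate 1, 8 and 5. The count called lower fell to 0 without parental 786-O replicate 2, and to 1 without parental 786-O replicate 1, resistant 786-O replicate 3, parental A498 replicate 2 or any resistant A498 replicate.

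For complex IV, which passes electrons to oxygen, MT-CO1 had 3550.2, 3998 and 3094 CPM in the parental 786-O replicates and 6541, 5358 and 5484 in resistant 786-O. The lowest resistant 786-O library was above the highest parental 786-O library, and the call passed (log2 fold change 0.71 ± 0.12 (SE), adjusted p = 1.20e-04). MT-CO2 had 2052, 2309 and 1799 CPM in parental 786-O and 3727, 3066 and 3204 in resistant 786-O, again without overlap (log2 fold change 0.70 ± 0.11 (SE), adjusted p = 6.91e-05). MT-CO3 overlapped, with 2122, 2403 and 1864 CPM in parental 786-O and 2830.4, 2035 and 2478 in resistant 786-O, and did not pass (log2 fold change 0.20 ± 0.13 (SE), adjusted p = 0.193), although it did without resistant 786-O replicate 2 (log2 fold change 0.32, adjusted p = 0.00171), with library size alone (0.35, adjusted p = 0.0349) and with no filter (0.19, adjusted p = 0.00123).

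For complex I, the proton pump that oxidises NADH, MT-ND4L had 357, 396 and 313 CPM in parental 786-O and 669, 523 and 527 in resistant 786-O with all resistant 786-O libraries above all parental 786-O libraries (log2 fold change 0.69 ± 0.11 (SE), adjusted p = 7.42e-05). MT-ND5 (log2 fold change 0.49 ± 0.14 (SE), adjusted p = 0.00553) and MT-ND4 (log2 fold change 0.37 ± 0.12 (SE), adjusted p = 0.0104) were also higher without overlap. MT-ND3 went the other way. It had 273, 308 and 262 CPM in parental 786-O and 253, 228 and 209.7 in resistant 786-O, so that every resistant 786-O library was below every parental 786-O library (log2 fold change -0.29 ± 0.11 (SE), adjusted p = 0.0259). MT-ND1 and MT-ND2 did not pass (log2 fold changes 0.24 (adjusted p = 0.0951) and 0.22 (adjusted p = 0.115)), nor did MT-ND6 of the light strand (0.04 (adjusted p = 0.796)). The call of MT-ND4 was lost without parental 786-O replicate 3 (0.29, adjusted p = 0.0602), and that of MT-ND3 without parental 786-O replicate 2 (-0.22, adjusted p = 0.112) or resistant 786-O replicate 3 (-0.20, adjusted p = 0.138). MT-ND3 also lost it with library size alone (-0.14, adjusted p = 0.250) and with at least 10 counts in every library (-0.23, adjusted p = 0.0750). MT-ND1 passed without parental 786-O replicate 2 (0.33, adjusted p = 0.0417), resistant 786-O replicate 2 (0.29, adjusted p = 0.00431) or parental A498 replicate 1 (0.23, adjusted p = 0.0350), and MT-ND2 without resistant 786-O replicate 2 (0.25, adjusted p = 0.0109). Both passed with library size alone (MT-ND1 0.38, adjusted p = 0.0130, MT-ND2 0.36, adjusted p = 0.0153) and with no filter (0.23, adjusted p = 2.55e-04 and 0.21, adjusted p = 6.18e-04). MT-ND1 also passed with at least 10 counts in every library (0.29, adjusted p = 0.0498) and with the 2 groups alone (0.27, adjusted p = 0.0438).

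MT-CYB, the catalytic subunit of complex III, had 730.4, 811 and 613 CPM in parental 786-O and 1226, 781 and 1017 in resistant 786-O. Resistant 786-O replicate 2 lay within the parental 786-O range, and the call passed (log2 fold change 0.49 ± 0.16 (SE), adjusted p = 0.0148) but was lost without parental 786-O replicate 3 (0.38, adjusted p = 0.0763) or resistant 786-O replicate 1 (0.35, adjusted p = 0.0705). For the ATP synthase, MT-ATP8 was higher (log2 fold change 0.34 ± 0.13 (SE), adjusted p = 0.0278), a call lost without parental 786-O replicate 1 (0.31, adjusted p = 0.0838), parental 786-O replicate 3 (0.25, adjusted p = 0.132) or resistant 786-O replicate 1 (0.21, adjusted p = 0.131). MT-ATP6, the subunit of the proton channel, did not pass (0.07 (adjusted p = 0.678)).

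The rRNAs and most tRNAs did not pass in resistant 786-O. MT-RNR1 had 291, 358 and 241 CPM in parental 786-O and 254, 274 and 233 in resistant 786-O (log2 fold change -0.22 ± 0.14 (SE), adjusted p = 0.170). MT-RNR2 had 1309, 1608 and 1150.3 and 1762, 1353 and 1565 (log2 fold change 0.20 ± 0.14 (SE), adjusted p = 0.199). Both overlapped between the groups. They passed without resistant 786-O replicate 2, MT-RNR1 as lower (-0.28, adjusted p = 0.0159) and MT-RNR2 as higher (0.29, adjusted p = 0.00632), and also MT-RNR1 without parental 786-O replicate 3 (-0.36, adjusted p = 0.0377) and MT-RNR2 without parental 786-O replicate 2 (0.34, adjusted p = 0.0454). Both also passed with no filter (MT-RNR1 -0.23, adjusted p = 5.35e-04, MT-RNR2 0.20, adjusted p = 0.00128), and MT-RNR2 with library size alone (0.35, adjusted p = 0.0378).

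Of the 12 tRNA genes, 3 of the light strand had higher counts in resistant 786-O, where antisense counts cannot be told apart from those of the gene. MT-TY had 21.8, 23.9 and 18.9 CPM in parental 786-O and 41.6, 37.3 and 36.8 in resistant 786-O (log2 fold change 0.84 ± 0.13 (SE), adjusted p = 3.28e-05), and MT-TP had 11.5, 11.9 and 12.1 and 19.6, 17.0 and 18.2 (log2 fold change 0.63 ± 0.08 (SE), adjusted p = 3.90e-06). MT-TC, for cysteine, rested on 6 to 8 counts in parental 786-O and 23 to 34 in resistant 786-O (log2 fold change 1.73 ± 0.33 (SE), adjusted p = 2.95e-04). None of these 3 overlapped. MT-TI, for isoleucine, was lower (log2 fold change -0.51 ± 0.22 (SE), adjusted p = 0.0459), a call lost in 15 of 22 other ways of processing, 8 of them with 1 library left out. Among the tRNAs without a call, MT-TS1 had 79.7, 95.8 and 44.5 CPM in parental 786-O and 60.6, 57.5 and 71.6 in resistant 786-O (-0.21 (adjusted p = 0.331)), and it was called lower without parental 786-O replicate 3 (-0.48, adjusted p = 0.00136). MT-TA, MT-TW and MT-TQ were called lower without resistant 786-O replicate 1 (-1.93, adjusted p = 2.97e-04 for MT-TA), MT-TD lower without resistant 786-O replicate 3 (-1.14, adjusted p = 0.0200), and MT-TM and MT-TT higher without resistant 786-O replicate 2 (0.47, adjusted p = 0.0112 for MT-TM). With no filter, MT-TA, MT-TW, MT-TQ, MT-TD and MT-TS1 were called lower. MT-TM was called higher with library size alone and with at least 10 counts in every library.

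Comparing the libraries labelled resistant A498 with parental A498 asked the same of the other line, with the reservation on the label given above. Nearly all mitochondrial mRNAs, both rRNAs and some tRNAs were lower in resistant A498, and none was higher. Of the 27 genes, 17 were called lower and 0 higher, beside 72.7% of all genes called, 36.3% higher and 36.4% lower. The median log2 fold change was -0.52 for the 27 genes and close to 0 for all genes. The groups did not overlap for 13 of the 27, beside 78.5% of all genes. With DESeq2, 0 were called higher too, as was 0 at an unadjusted p under 0.05, and MT-ND3 was called higher only without a filter on low counts. The number called lower was 12 to 18 with 1 library left out, with 12 without resistant A498 replicate 1.

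The rRNAs fell most. MT-RNR2 had 2408, 3202 and 3584 CPM in parental A498 and 803, 854 and 899.9 in resistant A498, a drop to 0.278 of the level (log2 fold change -1.85 ± 0.14 (SE), adjusted p = 1.26e-08). MT-RNR1 had 329, 446 and 514 and 135, 141 and 146 (log2 fold change -1.61 ± 0.15 (SE), adjusted p = 9.59e-08). For both, every resistant A498 library was far below every parental A498 library. MT-TS1, a light-strand tRNA gene, followed with 109, 126 and 136 CPM in parental A498 and 51.6, 48.3 and 50.5 in resistant A498 (log2 fold change -1.30 ± 0.19 (SE), adjusted p = 2.22e-05). For the light-strand tRNA genes, counts of the gene and of its antisense cannot be told apart. MT-TP was also lower (log2 fold change -0.52 ± 0.08 (SE), adjusted p = 4.32e-05), whereas MT-TY did not pass (0.11 (adjusted p = 0.481)). The calls of MT-TM and MT-TT (log2 fold changes -0.61 (adjusted p = 0.0206) and -1.01 (adjusted p = 0.0239)) were lost without parental A498 replicate 2 or either of resistant A498 replicates 1 and 2 (for MT-TT without resistant A498 replicate 2, -0.82, adjusted p = 0.0905, and for MT-TM -0.46, adjusted p = 0.0981), MT-TM also without parental A498 replicate 3 and MT-TT without parental A498 replicate 1.

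Among the mRNAs, 11 of 13 were called lower. MT-CYB, of complex III, had 902, 1277 and 1422 CPM in parental A498 and 524, 571 and 614 in resistant A498, without overlap (log2 fold change -1.08 ± 0.16 (SE), adjusted p = 2.79e-05). MT-ND6, of complex I, had 289, 382 and 420.4 and 194, 207 and 236, also without overlap (log2 fold change -0.78 ± 0.14 (SE), adjusted p = 1.45e-04). The subunits of complex IV and of the ATP synthase lay closer to 0, at -0.67 for MT-CO3, -0.64 for MT-ATP6, -0.54 for MT-CO1, -0.52 for MT-ATP8 and -0.39 for MT-CO2, all called without overlap.

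Of the other complex I mRNAs, MT-ND4 was lower by the test with overlapping libraries (log2 fold change -0.41 ± 0.12 (SE), adjusted p = 0.00491). MT-ND1, MT-ND5 and MT-ND2 were called at -0.37 (adjusted p = 0.0125), -0.37 (adjusted p = 0.0250) and -0.30 (adjusted p = 0.0331). Without parental A498 replicate 3 they were lost for MT-ND1 (-0.25, adjusted p = 0.0851), MT-ND5 (-0.27, adjusted p = 0.126) and MT-ND2 (-0.18, adjusted p = 0.193), and likewise without resistant A498 replicate 1 (-0.29, adjusted p = 0.0754 for MT-ND1). MT-ND5 and MT-ND2 also lost them without parental A498 replicate 2 or resistant A498 replicate 2, and MT-ND2 without resistant A498 replicate 3 or resistant 786-O replicate 3. With library size alone both were lost as well (MT-ND5 -0.31, adjusted p = 0.0663, MT-ND2 -0.23, adjusted p = 0.0966). MT-ND4L (-0.22 (adjusted p = 0.0954)) and MT-ND3 (0.10 (adjusted p = 0.416)) did not pass. MT-ND3 had 190.3, 251 and 268 CPM in parental A498 and 240.4, 244 and 276 in resistant A498, with overlap. MT-ND4L was called lower without parental A498 replicate 1 (-0.33, adjusted p = 0.0189) or resistant 786-O replicate 2 (-0.21, adjusted p = 0.0116). It was also called lower with no filter (-0.17, adjusted p = 0.00917) and with the 2 groups alone (-0.23, adjusted p = 0.00249).

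**Figure D3:**
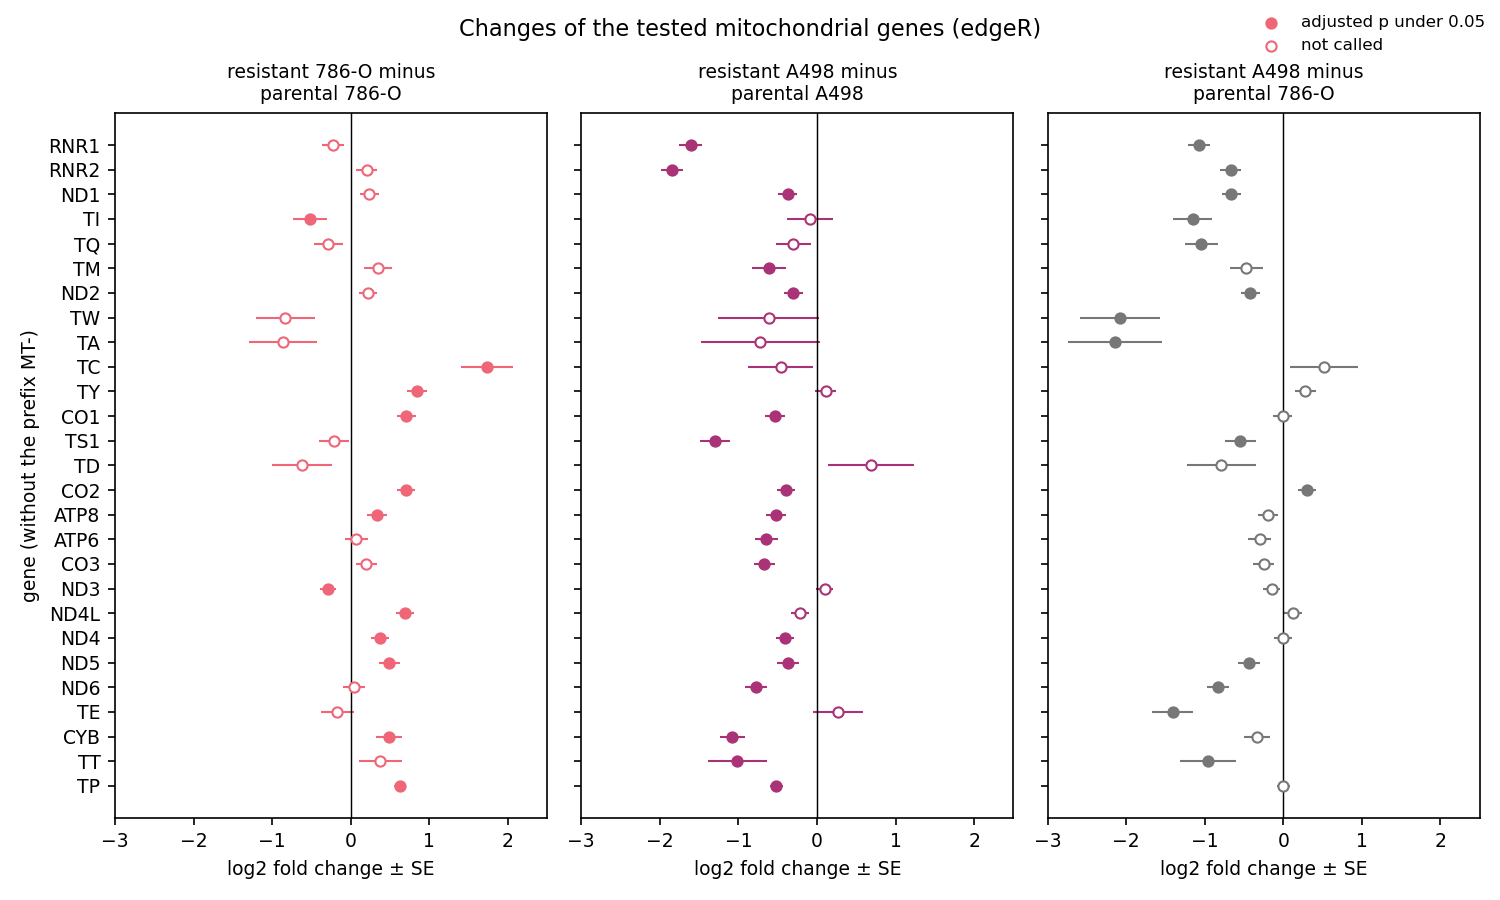
Log2 fold changes (points, bars for the SE) of the 27 tested genes in genome order for resistant 786-O against parental 786-O, resistant A498 against parental A498 and resistant A498 against parental 786-O, with filled points for an adjusted p under 0.05. Calls lie mostly above 0 in the first comparison (10 above, 2 below) and below 0 in the others (17 and 13 below).

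Set against parental 786-O instead of parental A498, the libraries labelled resistant A498 again had lower rRNAs, whereas none of the complex IV mRNAs was called lower in the 4-group fit. Of the 27 genes, 13 were called lower and 1 higher, beside 63.6% of all genes called, 31.6% higher and 32.1% lower. The groups did not overlap for 14 of the 27, beside 73.4% of all genes. MT-RNR1 was lower (log2 fold change -1.07 ± 0.14 (SE), adjusted p = 1.06e-05), as were MT-RNR2 (log2 fold change -0.67 ± 0.14 (SE), adjusted p = 5.45e-04), MT-ND6 (log2 fold change -0.83 ± 0.14 (SE), adjusted p = 9.55e-05) and MT-ND1 (log2 fold change -0.66 ± 0.12 (SE), adjusted p = 2.17e-04). MT-CO3 was at -0.25 (adjusted p = 0.115) and was called lower without resistant 786-O replicate 2 (-0.25, adjusted p = 0.00541), with the 2 groups alone (-0.21, adjusted p = 0.00300) and with no filter (-0.26, adjusted p = 7.38e-06). MT-CO1 was at -0.01 (adjusted p = 0.949) and MT-ND4 close to 0 (adjusted p = 0.989). MT-CO2 was the gene called higher (log2 fold change 0.30 ± 0.11 (SE), adjusted p = 0.0296), with a log2 ratio of -0.42 on counts not scaled for library size. Its call was lost without parental 786-O replicate 1 (0.30, adjusted p = 0.0699), parental 786-O replicate 3 (0.21, adjusted p = 0.147) or resistant A498 replicate 3 (0.30, adjusted p = 0.0683). MT-ND2 and MT-ND5 were called lower at -0.42 (adjusted p = 0.00624) and -0.44 (adjusted p = 0.0126), and MT-ND5 lost its call without parental 786-O replicate 2 (-0.34, adjusted p = 0.0669) or resistant A498 replicate 1 or 2. Both lost it with library size alone (MT-ND2 -0.27, adjusted p = 0.0659, MT-ND5 -0.29, adjusted p = 0.0929). Without resistant 786-O replicate 2, 19 genes were called lower and 2 higher. Without parental A498 replicate 1, 2 were called higher.

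Of the tRNAs, 7 were lower in resistant A498 than in parental 786-O. Among them MT-TQ, MT-TE, MT-TA and MT-TS1 are light-strand genes, with the limit of strand given above. MT-TQ, for glutamine, had 8.26, 8.43 and 6.88 CPM in parental 786-O and 3.09, 3.68 and 4.62 in resistant A498 (log2 fold change -1.05 ± 0.21 (SE), adjusted p = 4.54e-04). MT-TE, for glutamate, had 3.55, 2.97 and 2.44 and 0.932, 1.10 and 1.33 (log2 fold change -1.41 ± 0.26 (SE), adjusted p = 2.26e-04), and MT-TI had 2.87, 2.92 and 2.37 and 0.932, 1.29 and 1.45 (log2 fold change -1.15 ± 0.25 (SE), adjusted p = 9.81e-04). None of these 3 overlapped. MT-TA and MT-TW were also lower, but rested on 2 to 6 counts per resistant A498 library. MT-TS1 (-0.55 (adjusted p = 0.0223)) and MT-TT (-0.95 (adjusted p = 0.0300)) lost their calls without single libraries, MT-TS1 without parental 786-O replicate 2 among others (-0.31, adjusted p = 0.153) and MT-TT without resistant A498 replicate 1 among others (-0.78, adjusted p = 0.124).

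Against resistant 786-O, resistant A498 had 20 genes called lower and 0 higher, beside 46.1% of all genes called, 23.0% higher and 23.0% lower, with a median of -0.72 for the 27 genes and -0.03 for all genes. The groups did not overlap for 21 of the 27, beside 51.7% of all genes. At an unadjusted p under 0.05, 0 were higher, and DESeq2 called 0 higher. Without resistant 786-O replicate 2, 25 were called lower. The lowest mRNAs were MT-ND5 (log2 fold change -0.93 ± 0.14 (SE), adjusted p = 8.39e-05) and MT-ND1 (log2 fold change -0.90 ± 0.12 (SE), adjusted p = 3.45e-05). MT-ND3 did not pass (0.14 (adjusted p = 0.310)). Between the parental lines, 8 genes were higher and 13 lower in parental 786-O than in parental A498, beside 74.2% of all genes called, 38.2% higher and 36.1% lower, and the libraries did not overlap for 13 of the 27, beside 80.2% of all genes. MT-RNR2 was lower in parental 786-O (log2 fold change -1.18 ± 0.14 (SE), adjusted p = 1.51e-06), as were MT-CYB (log2 fold change -0.74 ± 0.16 (SE), adjusted p = 7.56e-04) and MT-CO2 (log2 fold change -0.69 ± 0.11 (SE), adjusted p = 5.57e-05), whereas MT-TE was higher (log2 fold change 1.68 ± 0.26 (SE), adjusted p = 3.31e-05). Without parental A498 replicate 1, 3 were called higher, and without parental 786-O replicate 3, 8 were called lower. These comparisons share groups with those above.

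The changes themselves were compared by a test of their difference, resistant A498 minus parental A498 less resistant 786-O minus parental 786-O. Of the 27 genes, 20 had a lower change in resistant A498 and 1, MT-ND3, a higher one, beside 68.3% of all genes called, 33.9% higher and 34.4% lower. The median difference was -0.86 for the 27 genes and -0.02 for all genes. All 13 mRNAs passed, 12 lower. MT-RNR2 differed by -2.05 ± 0.19 (SE) on the log2 scale (adjusted p = 2.12e-07), MT-CYB by -1.57 and MT-CO1 by -1.24. The MT-ND3 call (0.39 (adjusted p = 0.0335)) was lost without parental 786-O replicate 2 (0.33, adjusted p = 0.0835), resistant 786-O replicate 3 (0.34, adjusted p = 0.0701), parental A498 replicate 1 (0.26, adjusted p = 0.0649) or resistant A498 replicate 3 (0.34, adjusted p = 0.0767), and MT-TD was called higher as well without parental 786-O replicate 3 (1.59, adjusted p = 0.0415). Library size alone (0.31, adjusted p = 0.0863) and at least 10 counts in every library (0.31, adjusted p = 0.0964) also ended the MT-ND3 call. Of these 21 calls, 19 of the lower ones held under each of the alternatives that could be run.

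Within the pool of the 13 mRNAs, each gene's share does not depend on the scaling to nuclear genes. These shares varied little between replicates, with a median coefficient of variation of 0.919% in parental 786-O, 4.77% in resistant 786-O, 1.56% in parental A498 and 2.62% in resistant A498, against 12.7%, 14.5%, 18.5% and 7.62% for the CPM of the same genes. The amount of mitochondrial mRNA thus varied more between replicates than its make-up. The mean absolute log2 difference of the 13 shares was 0.0211 to 0.126 between libraries of 1 group and 0.185 to 0.299 between libraries of different groups. Resistant A498 was at a mean of 0.214 from parental A498, 0.229 from resistant 786-O and 0.265 from parental 786-O, all above the 0.0479 between its own libraries.

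MT-CO1 took 21.9 ± 0.0596% of the mRNA counts (SD, n = 3) in parental 786-O and 26.3 ± 0.701% in resistant 786-O, without overlap. MT-CO2 took 12.7, 12.7 and 12.7% in parental 786-O, 14.8, 15.5 and 15.1% in resistant 786-O, 15.8, 15.9 and 15.4% in parental A498 and 17.2, 17.3 and 16.4% in resistant A498. MT-ND3 took 1.69, 1.69 and 1.85% in parental 786-O, 1.00, 1.15 and 0.987% in resistant 786-O, 1.13, 1.13 and 1.10% in parental A498 and 1.69, 1.68 and 1.71% in resistant A498. MT-CO2 was thus lowest in parental 786-O, and MT-ND3 was low in resistant 786-O and parental A498 and high in parental 786-O and resistant A498.

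In resistant 786-O, 3 mRNAs (MT-CO1, MT-CO2 and MT-ND4L) had shares above all of parental 786-O and 7 had shares below, among them MT-ND3 (ratio of means 0.601), MT-ND6 (0.756) and MT-ATP6 (0.769). In resistant A498, 7 had shares above all of parental A498, with MT-ND3 (1.52) and MT-ND4L (1.21) in front, and 5 below, with MT-CYB (0.676) and MT-ND6 (0.827) the furthest. MT-CO2 and MT-ND4L had larger shares and MT-ND6, MT-ATP6 and MT-CO3 smaller ones in each resistant group than in the parental group of its label. The shares are parts of 1 whole, so that larger shares of some genes make those of others smaller. In resistant 786-O, the log2 fold changes of CPM were 0.20 for MT-CO3, 0.07 for MT-ATP6 and 0.04 for MT-ND6, none called. By CPM, the libraries did not overlap for 68.9% (786-O) and 78.5% (A498) of all genes. Shares have no such background.

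**Figure D4:**
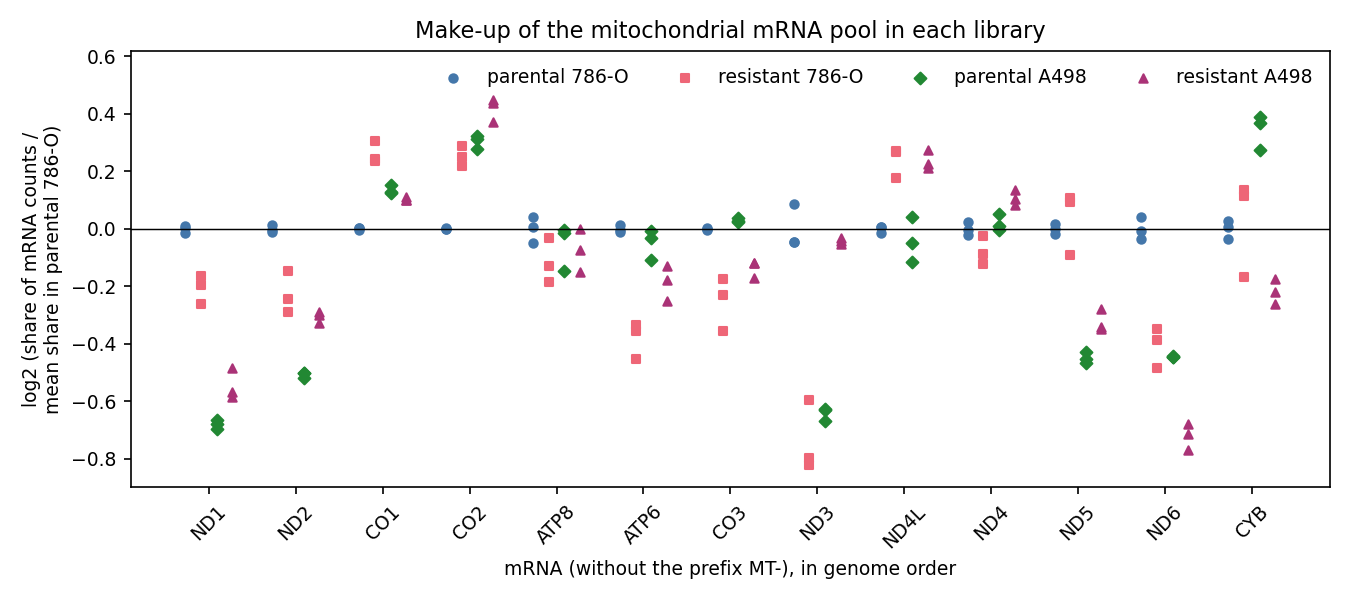
Share of each mRNA in the counts of the 13 mitochondrial mRNAs, as the log2 ratio to its mean share in parental 786-O, for every library (points, 3 per group). Replicates lie close together, MT-ND3 lies low in resistant 786-O and parental A498, MT-ND1 lies low in parental A498 and resistant A498, and MT-CO2 lies above the parental 786-O libraries in every other group.

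Ratios between genes were picked after their values were seen and are given as a description. The ratio of MT-ND1 to MT-RNR2 per length, neighbours on the heavy strand on either side of MT-TL1, was 0.887, 0.809 and 0.868 in parental 786-O, 0.850, 0.930 and 0.843 in resistant 786-O, 0.308, 0.310 and 0.307 in parental A498 and 0.848, 0.867 and 0.851 in resistant A498. The parental A498 libraries stood apart from those of the other 3 groups, which overlapped. The ratio of MT-ND6 to MT-ND5, which lie end to end on opposite strands, was 1.28 to 1.32 in the parental groups and 0.928 to 1.01 in the resistant ones. Counts of MT-ND6 and of its antisense cannot be told apart, so that ratios with MT-ND6 do not compare the strands. The ratio of MT-ND6 to MT-CYB, its neighbour beyond MT-TE, was 1.12, 1.17 and 1.14 in parental 786-O and 0.799, 0.921 and 0.833 in resistant 786-O, but 0.697, 0.651 and 0.643 in parental A498 and 0.807, 0.790 and 0.835 in resistant A498, so that it was lower in 1 resistant group and higher in the other.

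The ratio of the rRNAs, MT-RNR2 to MT-RNR1 per length, was 2.75, 2.75 and 2.92 in parental 786-O, 4.24, 3.03 and 4.10 in resistant 786-O, 4.48, 4.40 and 4.26 in parental A498 and 3.63, 3.70 and 3.77 in resistant A498. Resistant 786-O replicate 2 lay closest to parental 786-O. MT-CO2 to MT-CO3 per length was 1.10 to 1.11 in parental 786-O, 1.48 to 1.73 in resistant 786-O, 1.32 to 1.35 in parental A498 and 1.55 to 1.70 in resistant A498. MT-RNR2 had 8.09% to 8.83% as many counts as the 13 mRNAs in parental 786-O, 6.84% to 7.37% in resistant 786-O, 14.3% to 14.6% in parental A498 and 5.57% to 5.87% in resistant A498. Both resistant groups were thus below their parental groups, without overlap.

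**Figure D5:**
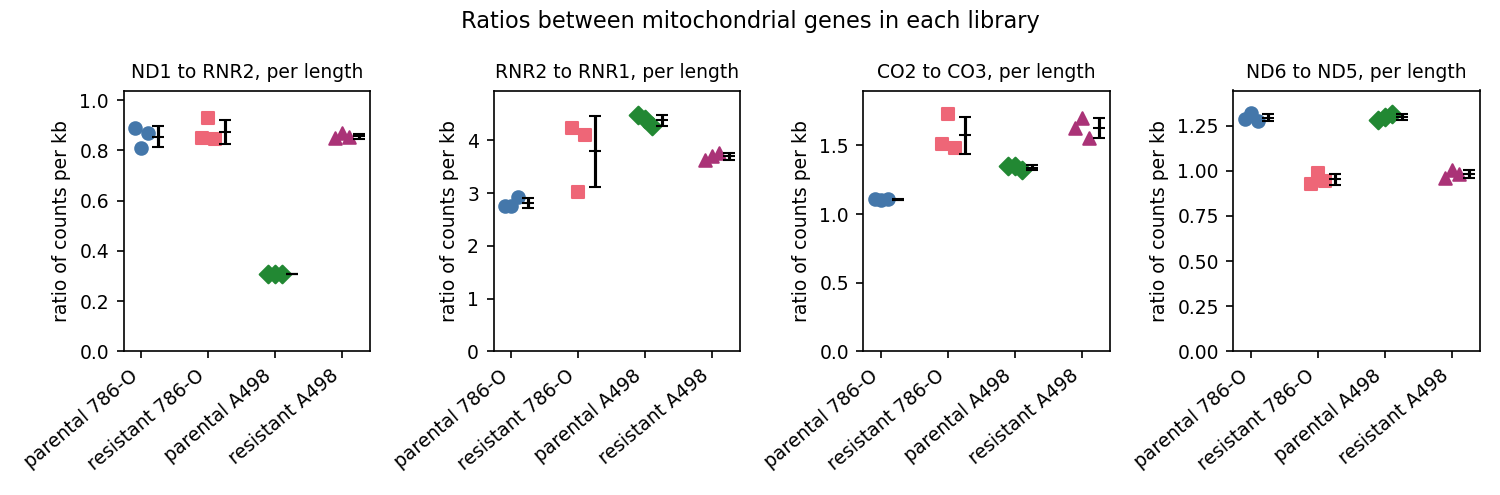
Ratios of counts per kb between pairs of mitochondrial genes in each library (points) with the mean and SD of 3 libraries (black), y axes from 0. MT-ND1 to MT-RNR2 is near 0.308 in parental A498 against 0.855 to 0.874 in the other groups, and MT-ND6 to MT-ND5 is lower in the resistant groups. Counts of MT-ND6 cannot be told apart from those of its antisense.

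Nuclear genes that make, process or regulate mitochondrial RNA are given for context, read against the backgrounds above (68.5% and 72.7% of all genes called). In resistant 786-O, where mitochondrial mRNAs held a larger share, most of the genes called were lower. Of 24 genes of transcription and mtDNA maintenance, 2 higher and 14 lower were called in resistant 786-O (median log2 fold change -0.29) and 7 higher and 11 lower in resistant A498 (-0.10). Of 37 genes of RNA processing and stability, 3 higher and 28 lower in resistant 786-O (-0.35) and 10 higher and 18 lower in resistant A498 (-0.17). Of 37 nuclear subunits of complexes I, III, IV and V, 5 higher and 23 lower in resistant 786-O (-0.18) and 20 higher and 10 lower in resistant A498 (0.24). Against parental 786-O, resistant A498 had 2 higher and 17 lower for transcription and maintenance (-0.29). RNA processing had 2 higher and 28 lower there (-0.40), and the nuclear subunits 10 higher and 18 lower (-0.09). Of all genes, 63.6% were called in that comparison, 31.6% higher and 32.1% lower. The 13 mitochondrial mRNAs had medians of 0.34 in resistant 786-O and -0.41 in resistant A498. Their sign was opposite to that of each list in resistant 786-O, but only to that of the nuclear subunits in resistant A498. Against parental 786-O, the mRNA median of resistant A498 was -0.25, of the same sign as that of the nuclear subunits.

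TFAM, which packages mitochondrial DNA and starts its transcription, had 82.7, 83.5 and 86.5 CPM in parental 786-O and 48.2, 41.9 and 39.0 in resistant 786-O, without overlap (log2 fold change -0.97 ± 0.06 (SE), adjusted p = 4.92e-09). It had 48.3, 50.1 and 47.9 in parental A498 and 70.1, 66.9 and 68.1 in resistant A498, where it was higher (log2 fold change 0.49 ± 0.07 (SE), adjusted p = 7.92e-06). POLRMT, the polymerase, was at 113 ± 3.92 CPM (SD, n = 3) in parental 786-O and 94.0 ± 10.0 in resistant 786-O (-0.27 (adjusted p = 0.00225)), and at 70.0 ± 3.29 in parental A498 and 85.0 ± 2.98 in resistant A498 (0.28 (adjusted p = 0.00187)). TFB2M, the initiation factor, was lower in both (log2 fold changes -0.58 and -0.31), as was the elongation factor TEFM (-0.19 (adjusted p = 0.0499) and -0.21 (adjusted p = 0.0372)). By size, TK2, a mitochondrial nucleoside kinase, was higher (1.17) and MTERF1, a termination factor, lower (-0.75) in resistant 786-O. In resistant A498, the exonuclease MGME1 (-1.17) and the DNA-binding protein SSBP1 (-0.71) were lower and the rRNA methyltransferase TFB1M higher (0.75). Set against parental 786-O, with any 1 library left out, resistant A498 had TFAM at -0.32 to -0.26 and POLRMT at -0.44 to -0.37. TFB1M was at -0.34 to -0.15, so that these genes, higher against parental A498, were lower there. TFB2M (-0.43 to -0.36) and SSBP1 (-0.95 to -0.90) stayed lower, MGME1 less so (-0.11 to -0.06), and TEFM was at -0.01 to 0.08.

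Of the factors that stabilise, tail and degrade mitochondrial RNA, LRPPRC and SLIRP form a complex on mRNAs. LRPPRC was at -0.23 in resistant 786-O and 0.18 in resistant A498, both called, the latter at -0.013 on counts not scaled for library size, and SLIRP was lower in both (-0.50 and -0.30). The poly(A) polymerase MTPAP was lower in both (-0.48 and -0.23). PNPT1, a ribonuclease of the degradosome, was higher in both (0.22 and 0.59), whereas its helicase SUPV3L1 was lower in resistant 786-O (-0.32) and did not pass in resistant A498 (0.01 (adjusted p = 0.901)). The largest changes by the naming rule were in PUS1 (-0.80), FASTKD3 (-0.77) and TRMU (-0.75) in resistant 786-O, and in PTCD2 (-0.97), TRMT61B (-0.84) and MRM3 (-0.84) in resistant A498, of which PUS1 and TRMU modify tRNAs and MRM3 methylates the 16S rRNA. With any 1 library left out, resistant A498 against parental 786-O had smaller changes in PTCD2 (-0.49 to -0.33), TRMT61B (-0.41 to -0.33) and MRM3 (-0.62 to -0.56). LRPPRC was at 0.03 to 0.07 there and PNPT1 at 0.55 to 0.61. SLIRP (-0.56 to -0.47), MTPAP (-0.47 to -0.38) and SUPV3L1 (-0.27 to -0.19) were lower.

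Of 15 regulators of mitochondrial biogenesis, 4 higher and 8 lower in resistant 786-O and 4 higher and 5 lower in resistant A498 were called. Of all genes, 68.5% and 72.7% were called in these comparisons. Against parental 786-O, resistant A498 had 5 higher and 6 lower, beside 63.6% of all genes called. PPARGC1A, the coactivator PGC-1α, had 0.973, 0.957 and 1.38 CPM in parental 786-O and 7.39, 7.67 and 7.17 in resistant 786-O (log2 fold change 2.73 ± 0.14 (SE), adjusted p = 2.94e-10). It had 0.955, 0.651 and 0.589 in parental A498 and 14.4, 15.4 and 15.3 in resistant A498 (log2 fold change 4.31 ± 0.16 (SE), adjusted p = 2.54e-12). Neither pair overlapped, so that PPARGC1A was higher in both resistant groups while the mitochondrial mRNAs were called mostly higher in 1 and lower in the other. NRF1, which activates nuclear genes of respiration, was lower in both (-0.71 and -0.21). PPARGC1B (1.13) was higher and GABPB1 (-0.74), a subunit of NRF2, lower in resistant 786-O, and SIRT3, the mitochondrial deacetylase, lower (-0.95) and PPARA higher (0.76) in resistant A498. With any 1 library left out, resistant A498 against parental 786-O had smaller changes in SIRT3 (-0.22 to -0.10) and PPARA (0.40 to 0.51). PPARGC1A was at 3.66 to 3.95 and NRF1 at -0.72 to -0.61 there.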

How the data were processed

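The authors deposited raw counts per gene and library, without normalization. Reads were trimmed with Trimmomatic 0.36.6, aligned to GRCh38/hg38 with HISAT2 2.1.0 and counted over GENCODE exons with featureCounts 1.6.3, after demultiplexing with bcl2fastq 2.19.0, per the submitters' processing notes and the study's methods, which also give a strand mode. The counting options listed in the methods include a mapping-quality minimum and an overlap minimum, which bear on reads shared by genes or by near-identical copies, and name none that assigns a read to several genes.

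The 12 libraries were grouped by their labels. After filterByExpr, 19929 genes remained, and library sizes were normalized by TMM. A quasi-likelihood model of the 4 group means was fitted with edgeR 4.0.16 (limma 3.58.1, R 4.3.3), with Benjamini-Hochberg adjustment over all genes tested and a threshold of 0.05, and was tested on simulated data. CPM used TMM library sizes. Gene positions and sequences were taken from GENCODE 44 and the GRCh38 sequence, lengths being those of the genes. Tables and figures were made with Python 3.11.15, pandas 2.3.3, scipy 1.17.1 and matplotlib 3.10.9. Intervals are 95% Wilson intervals, and floors of 3 counts and intervals cover counting error only.

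Named genes were all mitochondrial genes in the table, 11 nuclear factors, and from 3 lists the 3 called genes with the largest changes in each resistance comparison, with at least 5 CPM in the higher group and no overlap. The members and lists were chosen with earlier results of these data known. The methods name another test, of raw counts per gene, which was run as an alternative beside DESeq2 1.42.0, library size alone, scaling without the mitochondrial genes, no filter, at least 10 counts in every library, 2 groups alone, the replicate number as a block, thinning to 20042519 counts, nuclear copies added, and each library left out.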

Additional observations from a re-analysis of the deposited data

Results flagged for a closer look

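The change of mitochondrial RNA with the label of resistance differed between the lines by a test of the difference itself (edgeR's quasi-likelihood test of the interaction). Of 27 genes tested, 20 had a lower change in resistant A498 than in resistant 786-O, and 1 a higher change. The difference of the log2 fold changes was -2.05 for MT-RNR2, -1.38 for MT-RNR1, -1.57 for MT-CYB, -1.24 for MT-CO1 and 0.39 for MT-ND3. Since the libraries labelled resistant A498 resemble the parental 786-O and resistant 786-O libraries over all genes, the difference of the changes holds the difference between the parental lines as well, and these cannot be told apart.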

How the results depend on the processing

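Over the alternatives, 4218 of 4526 values of single genes kept their direction and side of the threshold, 206 lost a call, 93 gained one and 9 reversed. The share of the library kept its ratio within the spread between replicates under each alternative run, and the log2 ratio with 1 library left out was 0.45 to 0.66 for resistant 786-O to parental 786-O, -0.71 to -0.44 for resistant A498 to parental A498, -0.70 to -0.43 for parental 786-O to parental A498, -0.10 to 0.09 for resistant A498 to parental 786-O and -0.65 to -0.46 for resistant A498 to resistant 786-O.

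Counts of genes called moved as follows, and the cause was not tested. In resistant 786-O against parental 786-O, the count called lower went from 2 to 0 with library size alone, with at least 10 counts in every library and with the methods' test of raw counts, to 1 with DESeq2, scaling without mitochondrial genes, the replicate block and thinning, and to 8 with no filter, and the count called higher from 10 to 5 with the methods' test. In resistant A498 against parental A498, 1 was called higher with no filter. In parental 786-O against parental A498, the count called higher went from 8 to 3 with at least 10 counts in every library and that called lower from 13 to 0 with the methods' test. In resistant A498 against parental 786-O, the count called higher went from 1 to 2 with library size alone, DESeq2 and no filter, to 0 with the methods' test and to 3 with the 2 groups alone, and the count called lower from 13 to 25 with the methods' test and to 20 with the 2 groups alone. In the difference of the changes, the count called higher went from 1 to 0 with library size alone and with at least 10 counts, and to 2 with no filter. With 1 library left out, the ranges were 7 to 16 higher and 0 to 5 lower in resistant 786-O against parental 786-O, 12 to 18 lower in resistant A498 against parental A498, 3 to 8 higher and 8 to 13 lower in parental 786-O against parental A498, 0 to 2 higher and 10 to 19 lower in resistant A498 against parental 786-O, 17 to 25 lower in resistant A498 against resistant 786-O, and 0 to 2 higher and 20 lower in the difference of the changes.

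All 9 reversals came with the methods' test, which does not scale for library size: LRPPRC at -0.013 and TRMU at -0.022 in resistant A498 against parental A498, and LRPPRC at -0.69, MT-CO2 at -0.42, MT-ND4L at -0.60, MT-TY at -0.44, PNPT1 at -0.17, PPARA at -0.27 and TEFM at -0.71 in resistant A498 against parental 786-O. Library size alone moved the median of all genes from 0.03 to 0.18 in resistant 786-O against parental 786-O and from 0.00 to 0.15 in resistant A498 against parental 786-O. Called under every alternative in which they were tested, leaving out the methods' test, were 7 of 10 genes higher in resistant 786-O (MT-CO1, MT-CO2, MT-ND4L, MT-ND5, MT-TC, MT-TP and MT-TY), 12 of 17 lower in resistant A498 against parental A498, and 9 of 13 lower against parental 786-O. Genes with few counts were tested in fewer of the 21 alternatives. These were MT-TC in the first comparison (19) and MT-TW (19) and MT-TA (20) in the last. No pairing by replicate number was assumed. Correlations of same-numbered deviations were -0.24 to 0.25, which cannot decide on pairing because differently numbered libraries were not compared. The replicate block changed no other count of calls by over 1.5 times. The depth limits the tRNAs, of which 8 of 20 had too few counts to test.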
